A study of Mus musculus with 10 samples.

Results

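Cited1, Cited2 and Cited4 encode the CITED coregulators. They are 3 of the 18193 genes with a probe set of their own and were read by 5 of the 45101 probe sets on the array, 1 for Cited1 and 2 each for Cited2 and Cited4. A probe set is a group of short oligonucleotides that reads a transcript, and these 5 are all of those that the platform annotation gives to 1 of these 3 genes and to no other gene. Cited1 was chosen by its lower log2 signal in Sox17+/- than in WT gallbladder, in each strain, so its genotype values are given as a description with no test. Cited2 and Cited4 were taken as members of the same family. RNA came from mouse embryos at 15 days post coitum (dpc), in 5 groups of 2 biological replicates: Sox17+/- gallbladder of ICR, an outbred stock, wild type (WT) cystic duct of ICR, WT gallbladder of ICR, Sox17+/- gallbladder of C57BL/6 (B6), an inbred strain, and WT gallbladder of B6. The cystic duct, through which bile passes between gallbladder and common bile duct, was taken from ICR WT embryos alone. Sox17 is an endodermal transcription factor gene, and Sox17+/- embryos carry 1 altered copy beside 1 WT copy. The sources used here do not give the altered allele, the number of animals behind a sample, their litters or their sex. The comparisons ask how Sox17+/- gallbladder differs from WT gallbladder, how cystic duct differs from gallbladder, and how B6 differs from ICR.

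CITED proteins have no DNA-binding domain. They bind the acetyltransferases CBP and EP300 through an acidic C-terminal stretch and so act on factors that use those coactivators. CITED1 is known as a coactivator with SMAD4 and with oestrogen receptor alpha and as a marker of nephron progenitors in the fetal kidney. CITED2 competes with HIF1A, the oxygen-regulated factor, for the same surface of EP300, works with TFAP2 factors and is needed for heart, adrenal and liver development in mice. CITED4 is a further TFAP2 coactivator.

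Per RefSeq on GRCm38.p6, Cited1 lies on chrX:102247378-102252181, Cited2 on chr10:17723228-17725674 and Cited4 on chr4:120666563-120667820. The 250 bases before the first RefSeq start of each gene are printed because the 3 genes gave 3 different patterns over the same samples. They are chrX:102252182-102252431 on the minus strand, chr10:17722978-17723227 on the plus strand and chr4:120666313-120666562 on the plus strand, each 5′ to 3′ along the gene. Capitals mark the matches described after the sequences.
Cited1: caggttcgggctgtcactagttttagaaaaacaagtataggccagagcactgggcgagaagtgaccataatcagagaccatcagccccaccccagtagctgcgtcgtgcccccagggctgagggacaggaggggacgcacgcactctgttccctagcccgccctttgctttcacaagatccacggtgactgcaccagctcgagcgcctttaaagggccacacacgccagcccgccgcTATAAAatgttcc
Cited2: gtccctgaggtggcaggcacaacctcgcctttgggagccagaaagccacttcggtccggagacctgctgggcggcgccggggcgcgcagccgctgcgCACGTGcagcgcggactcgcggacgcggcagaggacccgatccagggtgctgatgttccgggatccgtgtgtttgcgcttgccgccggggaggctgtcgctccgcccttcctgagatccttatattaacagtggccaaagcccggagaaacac
Cited4: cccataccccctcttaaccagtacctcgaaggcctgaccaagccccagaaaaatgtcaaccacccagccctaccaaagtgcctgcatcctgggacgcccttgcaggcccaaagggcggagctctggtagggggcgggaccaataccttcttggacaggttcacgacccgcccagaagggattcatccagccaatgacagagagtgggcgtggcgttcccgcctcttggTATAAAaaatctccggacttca
Cited1 and Cited4 each hold TATAAA close to the start, at bases -13 to -8 for Cited1 and -22 to -17 for Cited4. The Cited2 stretch holds no TATAAA and has CACGTG at bases -153 to -148, in which the HIF core letters ACGTG read on both strands and overlap. Among 32851 RefSeq windows of 300 bases, which add 50 bases after the start, TATAAA on either strand was in 13.6% and the HIF core on either strand in 19.6%. The SOX core ACAAT, searched on both strands and held by 31% of windows, had 0 matches in the Cited1 and Cited4 windows and 1 in the Cited2 window, at bases 6 to 10 after its start. GCCNNNGGC, the AP-2 letters (16.6% of windows), and the GLI letters GACCACCCA (0.253%) had 0 matches at these 3 starts. Cited1 has 3 RefSeq starts, and the letters around the other two starts held TATAAA and the HIF core at the second and AP-2 letters at the third. These matches describe letters, and no binding was measured here.

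As deposited, sample medians ran from 5.51 to 6.07 log2 and interquartile ranges from 2.75 to 3.85 log2, so the samples were quantile normalized, and values below are normalized log2 signals unless called deposited. Of the 18193 genes, 14696 passed the filter on dim signal (mean log2 of 4.47 or more) and were tested. Of the 5 probe sets described here, 4 passed it. The samples of a gallbladder group correlated across genes at r from 0.966 to 0.996, against 0.898 in the cystic duct pair, where 3565 genes differed by over 1 log2 unit between the 2 samples. In ICR WT gallbladder replicate 1, 521 genes lay below all other gallbladder samples and over 1 log2 unit below replicate 2. As deposited, the Gapdh control signal at its 3′ end minus that at its 5′ end followed strain. It was 0.43 to 0.93 log2 in ICR gallbladders, against 0.00 to 0.30 in B6 gallbladders. Strain and this measure of RNA integrity cannot be told apart here. Sox17 checks the genotype labels: Sox17+/- gallbladders held 7.65, 7.90, 8.03 and 7.91, against 9.52, 9.24, 9.29 and 9.04 in WT gallbladders, and no label was contradicted. This was 37.8% of WT over both strains (log2 change -1.40, SE 0.107, limma adjusted p = 0.00403). With all 10 samples in the fit this adjusted p was 0.0542. The cystic duct samples held 8.28 and 7.63 of Sox17. The number of arrays limits the precision of every value here.

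Cited1 was read by 1 probe set (1449031_at). Its signal was 7.50 and 7.67 in ICR Sox17+/- gallbladder, 8.54 and 8.51 in ICR WT cystic duct, and 10.79 and 10.92 in ICR WT gallbladder. In B6 it was 7.42 and 8.08 in Sox17+/- gallbladder, against 10.69 and 10.64 in WT gallbladder. All 4 Sox17+/- gallbladders thus lay below all 4 WT gallbladders, with an empty gap of 3.12 log2 units in ICR and 2.56 in B6, and both cystic ducts lay between them. Group means were 7.59 ± 0.12 in ICR Sox17+/- gallbladder, 8.52 ± 0.02 in ICR cystic duct, 10.85 ± 0.09 in ICR WT gallbladder, 7.75 ± 0.46 in B6 Sox17+/- gallbladder and 10.66 ± 0.04 in B6 WT gallbladder (SD, n = 2 each). The closeness of the cystic duct pair depends on the normalization. As deposited, its samples held 8.66 and 7.99 of Cited1 (SD 0.48), the latter below the 8.06 of B6 Sox17+/- replicate 4.

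**Figure D1:**
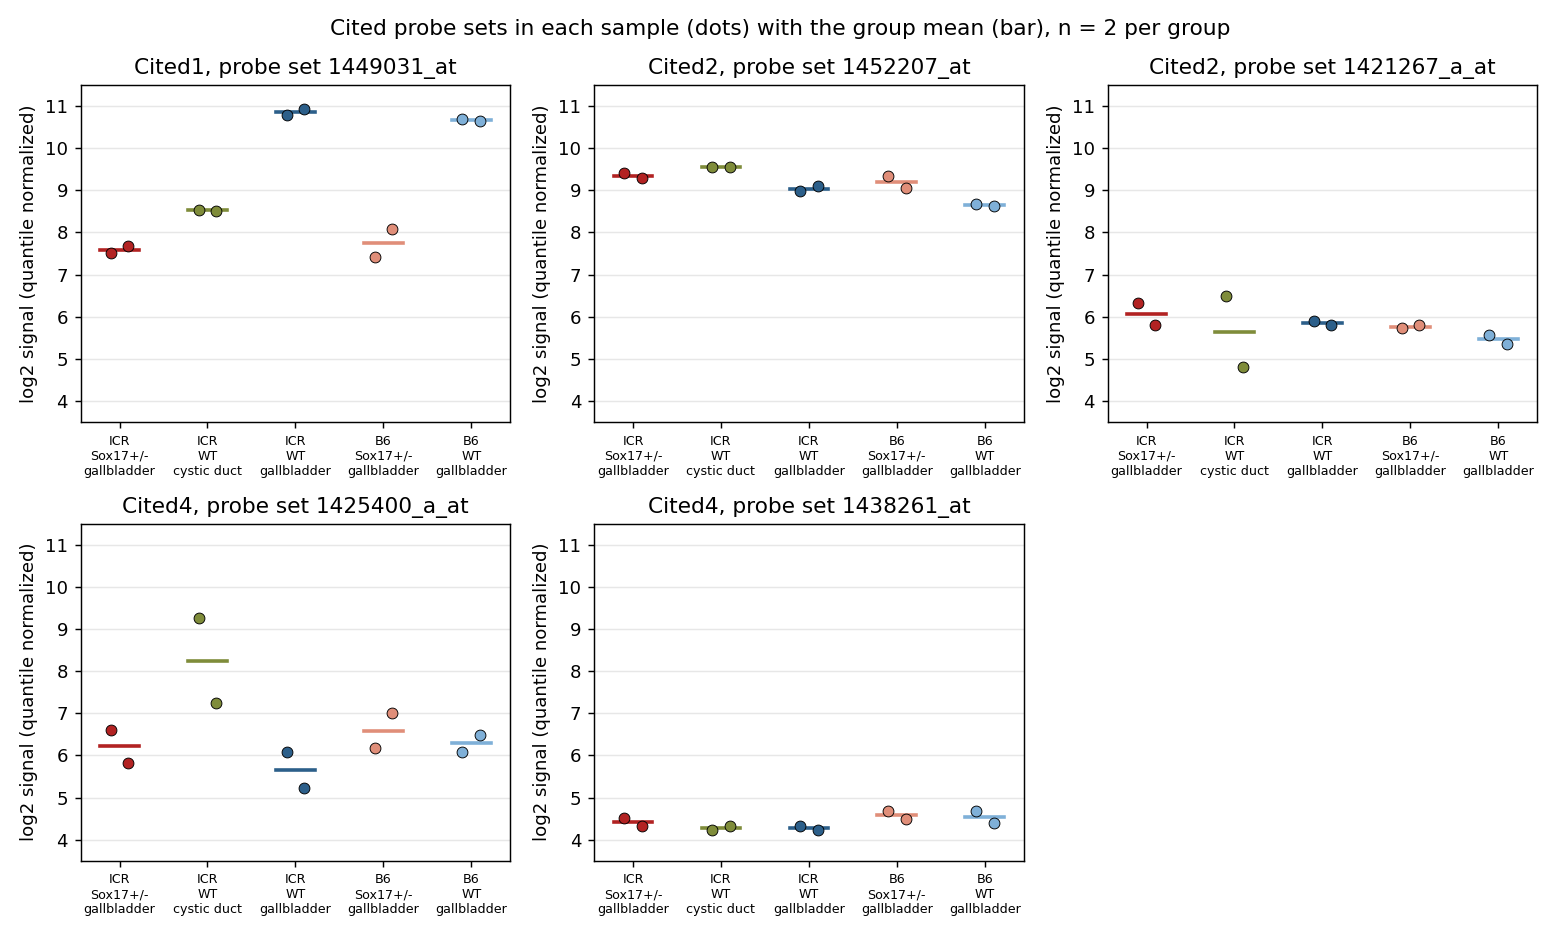
Normalized log2 signal (vertical axis) of the 5 Cited probe sets in each sample, by group (horizontal axis), with dots for samples and bars for group means (n = 2). Cited1 lies between 7.42 and 8.08 in Sox17+/- gallbladder, at 8.51 and 8.54 in cystic duct and between 10.64 and 10.92 in WT gallbladder, while Cited4 (1425400_a_at) is highest in cystic duct and its second probe set (1438261_at) is dim throughout.

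Over both strains Cited1 stood at 11.7% of its WT level in Sox17+/- gallbladder, 8.52-fold lower (log2 difference -3.09, SE 0.142). Within ICR it was at 10.4% of WT and within B6 at 13.3%, and from the deposited values these were 9.34% and 12.8%. These values chose the gene and carry no test. In the fit over all genes that holds this contrast, 78 of 14696 genes passed the threshold (0.531%, limma adjusted p under 0.05), of which 31 were higher (0.211%) and 47 lower (0.32%) in Sox17+/- gallbladder, and nothing is read from Cited1's place among them. That count was 8 with all 10 samples in the fit and ran from 10 to 767 with 1 sample left out, 767 being without ICR WT gallbladder replicate 2. The B6 difference minus the ICR difference was 0.36 log2 units (SE 0.283). It ran from 0.03 without B6 Sox17+/- replicate 4 to 0.69 without replicate 3, the pair that held 8.08 and 7.42. In whole-organ RNA, fewer cells that express a gene and less RNA per cell cannot be told apart.

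Biliary epithelial markers went both ways beside this gap, with a list mean that was not lower in Sox17+/- gallbladder. Of 12 such markers, 10 were on the array and none of the 10 was dim. Their mean log2 signal ran from 9.40 to 9.74 in ICR Sox17+/- gallbladder, against 9.05 to 9.27 in ICR WT gallbladder, and from 9.72 to 9.75 in B6 Sox17+/- gallbladder, against 9.49 to 9.74 in B6 WT gallbladder. None of the 10 passed for genotype (0 higher, 0 lower), where 0.531% of all genes did. At an unadjusted p under 0.05 there were 3, where 10.7% of all genes were. Of the 10, 5 lay above 0 and 5 below, with a median of 0.05 log2 units against -0.00 over all genes. Krt8 (1.26) and Sox9 (1.24, limma adjusted p = 0.0566) were highest, and Cdh1 (-0.23) and Krt19 (-0.19) lowest. Krt8 held 8.20 in ICR WT gallbladder replicate 1 and 10.77 in replicate 2. Epcam, an epithelial adhesion molecule, differed by -0.09 (limma adjusted p = 0.87). Mean marker levels of other tissues were higher in some Sox17+/- samples. Hepatocyte markers (9 of 9 on the array, 0 dim) averaged 11.56 to 12.25 in ICR Sox17+/- gallbladder, against 10.31 to 10.45 in ICR WT gallbladder, but 11.84 in both B6 Sox17+/- samples, against 11.42 to 12.04 in B6 WT gallbladder. Skeletal muscle markers (8 of 8 on the array, Myod1 dim) averaged 5.56 to 6.03 in ICR Sox17+/- gallbladder, against 5.28 to 5.35 in ICR WT gallbladder, and 5.93 to 8.28 in B6 Sox17+/- gallbladder, against 5.30 to 5.33 in B6 WT gallbladder. Of these skeletal muscle markers, 7 of the 7 measured lay above 0 for genotype, 0 passing and 5 at an unadjusted p under 0.05, with a median of 1.34. Intestinal markers (6 of 6 on the array, 3 dim) averaged 5.83 to 5.91 in ICR Sox17+/- gallbladder, against 5.55 in both ICR WT samples, and 5.88 to 5.89 in B6 Sox17+/- gallbladder, against 5.60 to 5.84 in B6 WT gallbladder. Erythroid markers averaged 8.16 to 9.00 in ICR Sox17+/- gallbladder, against 7.65 to 8.34 in ICR WT gallbladder, and 8.81 to 9.84 in B6 Sox17+/- gallbladder, against 8.43 to 8.90 in B6 WT gallbladder, so the groups overlapped, and 7 of 7 lay above 0 for genotype. The part of these tissues in the Cited1 difference was not tested.

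Cystic duct of ICR WT embryos had less Cited1 signal than gallbladder of the same stock. From the 8.54 and 8.51 in cystic duct and the 10.79 and 10.92 in gallbladder, Cited1 was 5.04-fold lower in cystic duct, at 19.9% of the gallbladder level (log2 difference -2.33, SE 0.209, 95% interval -2.82 to -1.85, limma adjusted p = 0.00166). In this comparison 2107 of 14696 genes passed (14.3%), of which 842 were higher (5.73%) and 1265 lower (8.61%) in cystic duct. The ICR WT gallbladder samples also served in choosing Cited1, so this test is not independent of that choice. A fit of the 2 compared groups alone gave the same difference with an adjusted p of 0.13, and the difference was -2.69 from the deposited values. Cited1 in ICR Sox17+/- gallbladder was below cystic duct too, at 52.3% of it (log2 difference -0.94), or 60.3% from the deposited values (-0.73), and the samples did not overlap. Sox17 itself overlapped between ICR Sox17+/- gallbladder and cystic duct, with a difference of -0.18 on its probe set 1421657_a_at and -0.06 on 1429177_x_at. These last comparisons are descriptions without a test.

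Cystic duct samples also differed from gallbladder in their cell type markers. Over all genes 5.73% rose and 8.61% fell in this comparison, with a median of -0.03. With only the 2 compared groups in the fit, 0 genes passed. Hepatocyte markers averaged 13.37 to 13.81 in cystic duct, against 10.31 to 10.45 in ICR WT gallbladder, and 8 of 9 rose (median 3.53 log2 units). Smooth muscle markers averaged 7.57 to 8.41 in cystic duct, against 9.42 to 9.59 in gallbladder, and 6 of 9 fell (median -1.77). Biliary epithelial markers averaged 9.23 to 9.37 in cystic duct, against 9.05 to 9.27 in gallbladder, where 1 rose (Krt18, 0.59, limma adjusted p = 0.0292) and 1 fell (Krt19, -1.15, limma adjusted p = 0.00994). Both encode keratins of simple epithelia. Krt19 missed the threshold without ICR WT gallbladder replicate 1 (limma adjusted p = 0.0583). Krt18 missed it without either ICR WT gallbladder sample or any 1 of the 4 B6 samples (limma adjusted p 0.0579 to 0.134), and from the deposited values it differed by 0.23 (limma adjusted p = 0.45). Intestinal markers averaged 5.71 to 7.14 in cystic duct, against 5.55 in both gallbladder samples, and went both ways. Fabp1 rose by 2.54 and Tff3 by 2.81, while Vil1 differed by -1.68 (limma adjusted p = 0.0929) and Cdx2, Cdx1 and Fabp2 were dim. The part of these markers in the Cited1 difference was not tested.

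**Figure D2:**
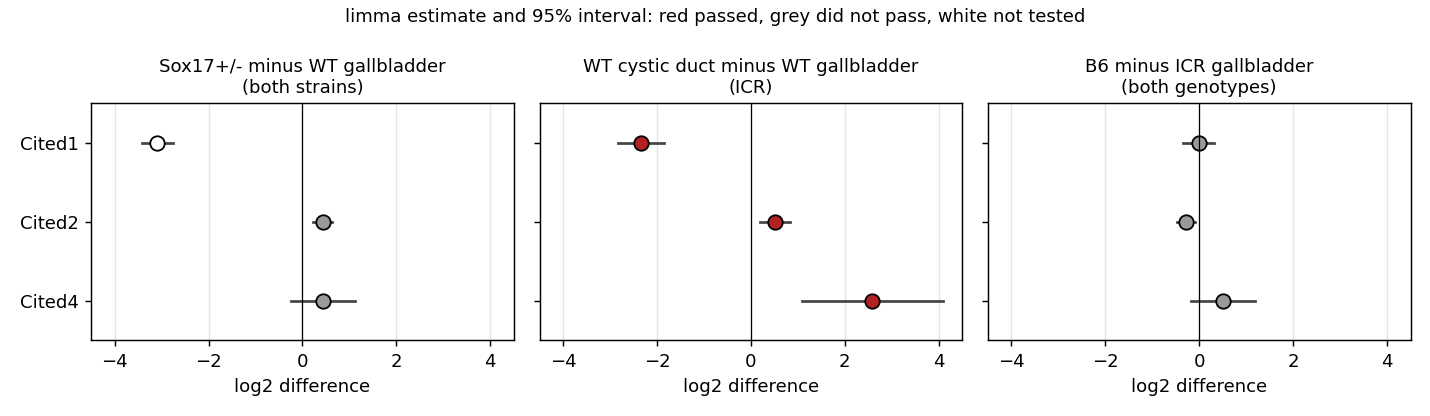
Estimated log2 differences (horizontal axes) with 95% intervals for Cited1, Cited2 and Cited4 (vertical axis) in the 3 comparisons named above each panel, with red for limma adjusted p under 0.05, grey for a larger p and white where no test is given. Cited1 lies at -3.09, -2.33 and -0.01, Cited2 at 0.43, 0.51 and -0.28, and Cited4 at 0.43, 2.59 and 0.50 in the panels from left to right. The ICR WT gallbladder samples behind the Cited1 cystic duct value also served in choosing Cited1.

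Between strains no difference in gallbladder Cited1 passed. The difference of B6 minus ICR over both genotypes was -0.01 log2 units (SE 0.142, 95% interval -0.34 to 0.32, limma adjusted p = 0.967), in a comparison where 1311 of 14696 genes passed (8.92%), with 702 higher (4.78%) and 609 lower (4.14%) in B6. B6 WT gallbladder was 0.19 below ICR WT gallbladder and the 2 groups lay 0.10 apart, while B6 Sox17+/- gallbladder was 0.17 above ICR Sox17+/- gallbladder and the groups overlapped. The order of Cited1 group means was therefore ICR WT gallbladder, B6 WT gallbladder, ICR cystic duct, B6 Sox17+/- gallbladder and ICR Sox17+/- gallbladder, and its lowest neighbours overlapped in their samples. Cited1 is X-linked. Xist, expressed from the inactive X of females, ran from 11.60 to 12.77 over all samples, and the Y-linked Eif2s3y ran from 6.80 to 8.42, so every sample carried signal of both. In cystic duct against ICR WT gallbladder the Y-linked Kdm5d fell by 1.38 (limma adjusted p = 0.0091). Eif2s3y (-0.96, limma adjusted p = 0.0813), Xist (-0.28) and the Y-linked Uty (-0.15) did not pass. The part of sex in the Cited1 values was not tested.

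The genes with the pattern most like Cited1 were taken by Pearson's r over the 10 samples, among 3174 genes whose group means spanned at least 1 log2 unit. They were Igfbp2 (0.966), Hhip (0.957), Sox17 (0.942), Homer2 (0.940), Esyt3 (0.922), Shh (0.918), Mgam (0.911), Frmd5 (0.909), Pmch (0.893) and Igsf1 (0.886). The samples share their groups, so r here mostly follows group means, and it is a description. Igfbp2, which binds insulin-like growth factors, averaged 8.77 in ICR Sox17+/- gallbladder and 8.93 in cystic duct, against 10.10 in ICR WT gallbladder, and 8.66 in B6 Sox17+/- gallbladder, against 10.08 in B6 WT gallbladder. Hhip, a membrane protein that sequesters Hedgehog ligands, averaged 6.43 in ICR Sox17+/- gallbladder and 6.66 in cystic duct, against 8.34 in ICR WT gallbladder, and 6.76 in B6 Sox17+/- gallbladder, against 8.24 in B6 WT gallbladder. Shh, a Hedgehog ligand, had the widest span of the 10, with 8.46 in ICR Sox17+/- gallbladder and 8.76 in cystic duct, against 11.70 in ICR WT gallbladder, and 9.31 in B6 Sox17+/- gallbladder, against 12.26 in B6 WT gallbladder. Mgam, an enzyme that digests starch products, averaged 5.28 in ICR Sox17+/- gallbladder and 6.17 in cystic duct, against 7.27 in ICR WT gallbladder, and 5.46 in B6 Sox17+/- gallbladder, against 8.17 in B6 WT gallbladder.

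All 10 of these genes had both samples of each lower group below both WT gallbladder samples of the same strain, as Cited1 did, which the choice by likeness favours. In 8 of the 10 the cystic duct mean lay nearer to WT gallbladder than the ICR Sox17+/- mean did. Pmch, the precursor of melanin-concentrating hormone, and Igsf1 were the other two, with Pmch at 4.43 in ICR Sox17+/- gallbladder, 4.03 in cystic duct and 6.43 in ICR WT gallbladder. The pair of B6 Sox17+/- samples that differed for Cited1 (8.08 in replicate 4 and 7.42 in replicate 3) differed in the same direction for 8 of the 10. The choice of these genes used this pair too and so favours that count, from which nothing is read. The 5 genes most opposite to Cited1 were Lurap1l (-0.980), Wfdc18 (-0.959), Scara3 (-0.925), Cldn8 (-0.917) and Slc7a13 (-0.901). Lurap1l averaged 9.57 in ICR Sox17+/- gallbladder and 9.07 in cystic duct, against 8.08 in ICR WT gallbladder, and 9.66 in B6 Sox17+/- gallbladder, against 8.04 in B6 WT gallbladder. Cldn8, a tight junction claudin, averaged 8.65 in ICR Sox17+/- gallbladder and 8.55 in cystic duct, against 6.85 in ICR WT gallbladder, and 9.00 in B6 Sox17+/- gallbladder, against 7.54 in B6 WT gallbladder. Cited2 had r of -0.721 and Cited4 of -0.328 with Cited1.

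**Figure D3:**
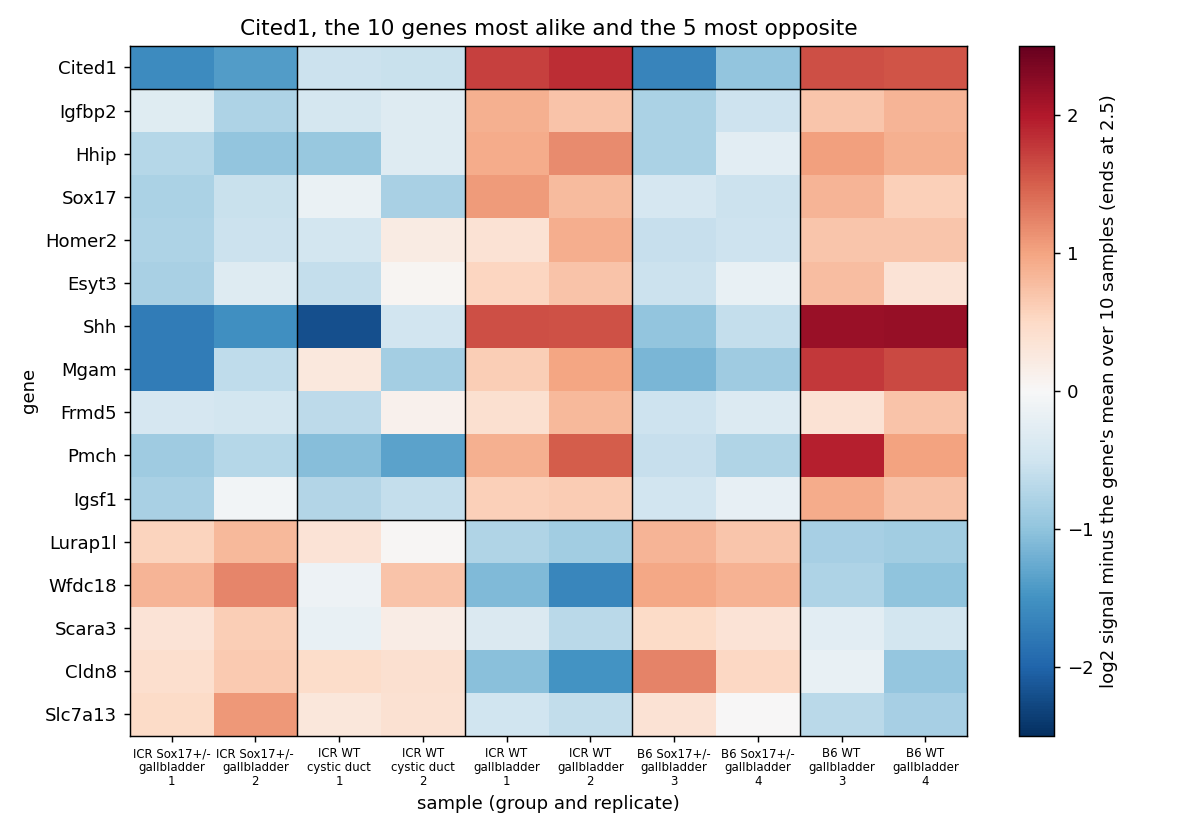
Log2 signal of each gene (vertical axis) in each of the 10 samples (horizontal axis), less the gene's mean over the 10 samples, for Cited1, the 10 genes most like it and the 5 most opposite. Blue is below and red above the mean, and for Cited1 and the 10 genes most like it the WT gallbladder samples are red and the Sox17+/- gallbladder samples blue or pale, with the cystic duct samples blue or, in single cells, pale red.

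Cited2 was read by 1452207_at, the brighter of its probe sets. It was 9.40 and 9.30 in ICR Sox17+/- gallbladder, 9.55 and 9.56 in cystic duct, and 8.99 and 9.09 in ICR WT gallbladder, and in B6 it was 9.34 and 9.05 in Sox17+/- gallbladder, against 8.68 and 8.62 in WT gallbladder. The mean of Sox17+/- gallbladder lay above that of WT gallbladder in both strains, the opposite side from Cited1, by 0.31 log2 units in ICR and 0.54 in B6. Over both strains the difference was 0.43 (SE 0.085, 95% interval 0.23 to 0.63, or 1.34-fold), which did not pass over all genes (limma adjusted p = 0.116). Without ICR WT gallbladder replicate 2 it was 0.45 with a limma adjusted p of 0.0362, and over all alternatives the adjusted p ran from 0.0362 to 0.586. The difference between strains did not pass (B6 minus ICR 0.24, SE 0.171, 95% interval -0.16 to 0.64, limma adjusted p = 0.834), in a test that 0 of 14696 genes passed (0%) and 813 met at an unadjusted p under 0.05, and that 554 passed without ICR WT gallbladder replicate 2. The dimmer probe set 1421267_a_at gave 0.26 for genotype (SE 0.135, limma adjusted p = 0.586) in a fit of 26443 probe sets, of which 33 passed (0.125%). Its genotype groups overlapped in ICR, with 6.32 and 5.81 in Sox17+/- gallbladder, against 5.90 and 5.79 in WT gallbladder. In B6 it held 5.74 and 5.79 in Sox17+/- gallbladder, against 5.56 and 5.36 in WT gallbladder.

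In cystic duct Cited2 was higher than in ICR WT gallbladder by 0.51 log2 units, or 1.43-fold (SE 0.141, 95% interval 0.19 to 0.84, limma adjusted p = 0.0481). This comparison and the ICR genotype comparison share the ICR WT gallbladder samples. The call was lost with the deposited values, which gave 0.16, with median-centred values (0.26) and without any 1 of the 8 gallbladder samples. The probe set 1421267_a_at did not share it: it held 6.48 and 4.80 in cystic duct, against 5.90 and 5.79 in ICR WT gallbladder, with a difference of -0.20 (SE 0.477, limma adjusted p = 0.797). B6 gallbladders stood 0.28 below ICR over both genotypes (SE 0.085, 95% interval -0.48 to -0.08), at 82.5% of the ICR level, and did not pass (limma adjusted p = 0.0893). The order of group means for Cited2 was cystic duct, ICR Sox17+/- gallbladder, B6 Sox17+/- gallbladder, ICR WT gallbladder and B6 WT gallbladder, and the samples of B6 Sox17+/- gallbladder overlapped those of both of its neighbours in that order. Their means were 9.56 ± 0.00, 9.35 ± 0.07, 9.19 ± 0.20, 9.04 ± 0.07 and 8.65 ± 0.04 in that order (SD, n = 2 each). As deposited, the cystic duct samples held 9.66 and 9.05 of Cited2 (SD 0.44). By the same measure of likeness the nearest genes were Vnn1 (0.956), which encodes a pantetheinase, Limch1 (0.919) and Unc5cl (0.889). Vnn1 averaged 8.33 in ICR Sox17+/- gallbladder and 8.66 in cystic duct, against 7.34 in ICR WT gallbladder, and 7.52 in B6 Sox17+/- gallbladder, against 6.76 in B6 WT gallbladder.

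Cited4 was read by 1425400_a_at and had a larger replicate SD in every group than 1449031_at of Cited1 and 1452207_at of Cited2. It was 6.61 and 5.83 in ICR Sox17+/- gallbladder, 9.25 and 7.24 in cystic duct, and 6.09 and 5.22 in ICR WT gallbladder, and in B6 it was 6.17 and 7.01 in Sox17+/- gallbladder, against 6.08 and 6.49 in WT gallbladder. The genotype groups overlapped in both strains, means being 6.22 ± 0.55 in ICR Sox17+/- gallbladder, 8.24 ± 1.43 in cystic duct, 5.65 ± 0.62 in ICR WT gallbladder, 6.59 ± 0.59 in B6 Sox17+/- gallbladder and 6.29 ± 0.29 in B6 WT gallbladder (SD, n = 2 each), and both cystic duct samples lay above every gallbladder sample. For genotype the difference was 0.43 log2 units (SE 0.290, 95% interval -0.25 to 1.12, limma adjusted p = 0.642), and for B6 minus ICR it was 0.50 (SE 0.290, 95% interval -0.18 to 1.18, limma adjusted p = 0.308). With 1 sample left out they ran from 0.22 to 0.65 and from 0.28 to 0.72. Cystic duct was 6.02-fold higher than ICR WT gallbladder (log2 difference 2.59, SE 0.653, 95% interval 2.12-fold to 17.1-fold, limma adjusted p = 0.0364). The value was 1.58 without cystic duct replicate 1 and 3.60 without replicate 2, both past the threshold. The call was lost without any 1 of the 8 gallbladder samples (adjusted p 0.059 to 0.164) and with the deposited values (2.31, adjusted p = 0.082). The second probe set, 1438261_at, stayed between 4.22 and 4.68 in all 10 samples, had a mean below the filter and was not tested.

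Within each group the sample with more Cited4 was also the one with more signal of erythroid markers, genes of the red cell lineage. Of 8 such markers 7 were on the array, 0 of them dim, and their mean log2 signal was 9.00 and 8.16 in ICR Sox17+/- gallbladder, 10.47 and 9.40 in cystic duct, and 8.34 and 7.65 in ICR WT gallbladder. In B6 it was 8.81 and 9.84 in Sox17+/- gallbladder, against 8.43 and 8.90 in WT gallbladder. The order of the 2 samples matched Cited4 in 5 of 5 groups, and the share of all genes that do so was not counted. Of the 15 gene lists the erythroid list alone matched it in 5 of 5, and 4 lists (CITED partners, SMAD-responsive genes, biliary epithelium and smooth muscle) ran opposite in 5 of 5. Mesothelial and endothelial markers likewise ran opposite to Cited1 in 5 of 5 groups, so nothing is read from these counts. In cystic duct, where 5.73% of all genes rose, 4 of the 7 erythroid markers did, Klf1 by 3.89, Hemgn by 3.29, Epor by 1.90 and Alas2 by 1.87 log2 units, and the median of the 7 was 1.90. Klf1 encodes a transcription factor of erythroid cells and Epor the erythropoietin receptor. The genes most like Cited4, ranked over these same samples, were Ptp4a3 (r 0.988), Gfi1b (0.988) and Urod (0.986). Gfi1b encodes a transcription factor needed for erythroid and megakaryocyte development, and Urod an enzyme of haem synthesis. Gfi1b averaged 6.52 in ICR Sox17+/- gallbladder and 8.42 in cystic duct, against 6.10 in ICR WT gallbladder, and 7.07 in B6 Sox17+/- gallbladder, against 6.73 in B6 WT gallbladder. The part of blood cells in the Cited4 values was not tested.

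**Figure D4:**
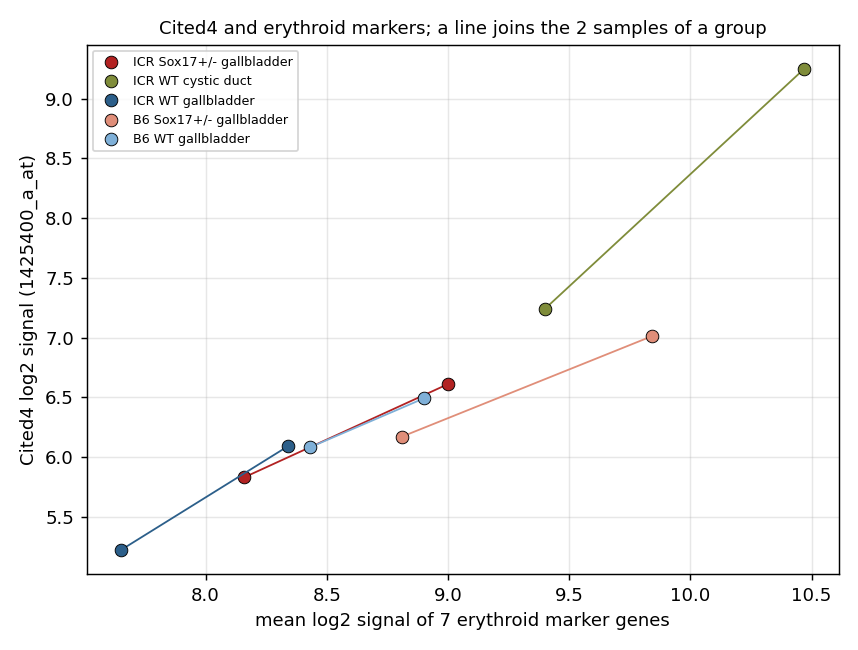
Cited4 log2 signal of 1425400_a_at (vertical axis) against the mean log2 signal of 7 erythroid marker genes (horizontal axis), 1 dot per sample, with a line joining the 2 samples of a group. All 5 lines slope upwards, and the cystic duct samples, at 9.25 and 7.24 for Cited4, are the highest.

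Of 16 genes listed as partners of CITED proteins, 13 were measured (Tfap2b, Tfap2c and Lhx2 were dim). The list holds genes for bound proteins and also the HIF genes Hif1a, Epas1 and Arnt, although CITED2 competes with HIF1A for EP300. For genotype 0 of the 13 passed in either direction, where 0.531% of all genes did, with 2 at an unadjusted p under 0.05 and a median of -0.05 log2 units against -0.00 over all genes. The smallest p values belonged to Hif1a, at -0.34 (SE 0.101, limma adjusted p = 0.3), Esr1, the oestrogen receptor alpha gene, at 0.33 (SE 0.104, limma adjusted p = 0.327), Tfap2a at -0.21 and Arnt, the HIF1A dimer partner, at -0.17. Ep300 and Crebbp, the acetyltransferase genes, differed by -0.09 and -0.07. In cystic duct 1 of 13 partners rose and 1 fell, against 5.73% and 8.61% of all genes (median -0.25 against -0.03 over all genes): Ppara, a nuclear receptor of fatty acid oxidation that is abundant in liver, by 1.98 (SE 0.377, limma adjusted p = 0.0142), while Hif1a fell by 0.82 (SE 0.198, limma adjusted p = 0.0321). Ppara missed the threshold without ICR WT gallbladder replicate 2 (limma adjusted p = 0.0751) and with the deposited values (0.0624), and Hif1a missed it without either ICR WT gallbladder sample or any 1 of the 4 B6 samples (0.0636 to 0.138). Between strains, where 8.92% of all genes passed, Ppara was the 1 partner that did, at -0.98 in B6 minus ICR (SE 0.222, limma adjusted p = 0.0397), and the median was -0.00 against 0.05 over all genes. Of its other probe sets, 1439675_at gave -0.79 (limma adjusted p = 0.00502) and 1457721_at gave 0.05 (limma adjusted p = 0.739). The Ppara call was lost without ICR Sox17+/- replicate 1 or any 1 of the 4 B6 samples (limma adjusted p 0.0686 to 0.141). Hepatocyte markers stood beside the Ppara value in cystic duct at 13.37 to 13.81, against 10.31 to 10.45 in gallbladder, and their part in it was not tested.

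Genes known to respond to HIF and SMAD signalling were counted the same way, with 0.531% of all genes past the threshold for genotype. Of 17 HIF-responsive genes, all measured, 0 passed, 2 had an unadjusted p under 0.05 and the median was -0.07, with Ankrd37 at 0.26, the glucose transporter gene Slc2a1 at 0.29, the glycolytic Aldoa at -0.15 and Ndrg1 at -0.14. Of 12 SMAD-responsive genes 11 were measured, and 0 passed, 1 had an unadjusted p under 0.05 and the median was -0.02, with Id2 at -0.29, Ccn2 at 0.87, the inhibitory Smad7 at 0.57 and Ski at 0.73. Without ICR WT gallbladder replicate 2, which leaves replicate 1 alone in its group, the last 3 of these passed, with Ccn2 at 1.45, Smad7 at 1.02 and Ski at 1.33. Without replicate 1 they stood at 0.28, 0.12 and 0.14 and did not pass, so their size rested on that sample. In cystic duct 1 of 17 HIF-responsive genes rose and 3 fell (median -0.38), and 0 of 11 SMAD-responsive genes rose and 4 fell (median -0.50), where 5.73% of all genes rose and 8.61% fell (median -0.03). Among those that passed, the values ran from -1.78 for P4ha2, a collagen prolyl hydroxylase subunit, to 1.44 for Slc2a1, and Tgfbi, a matrix protein gene, fell by 1.66 (-0.85 to -1.12 on its 3 other probe sets, which did not pass), these genes being picked after their values were seen. Slc2a1 missed the threshold without any 1 of the 8 gallbladder samples (limma adjusted p 0.0701 to 0.164). Between strains 5 of 17 HIF-responsive genes were higher in B6 and 0 lower, against 4.78% and 4.14% of all genes (median 0.09 against 0.05). Pdk1 differed most, by 0.77, and missed the threshold without ICR Sox17+/- replicate 1 or any 1 of the 4 B6 samples. Slc2a1, Adm, Ankrd37 and P4ha2 passed at limma adjusted p of 0.0226 to 0.0418, and how far they rest on 1 sample was not examined. Of 11 SMAD-responsive genes 2 were lower and 0 higher in B6 (median 0.06).

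**Figure D5:**
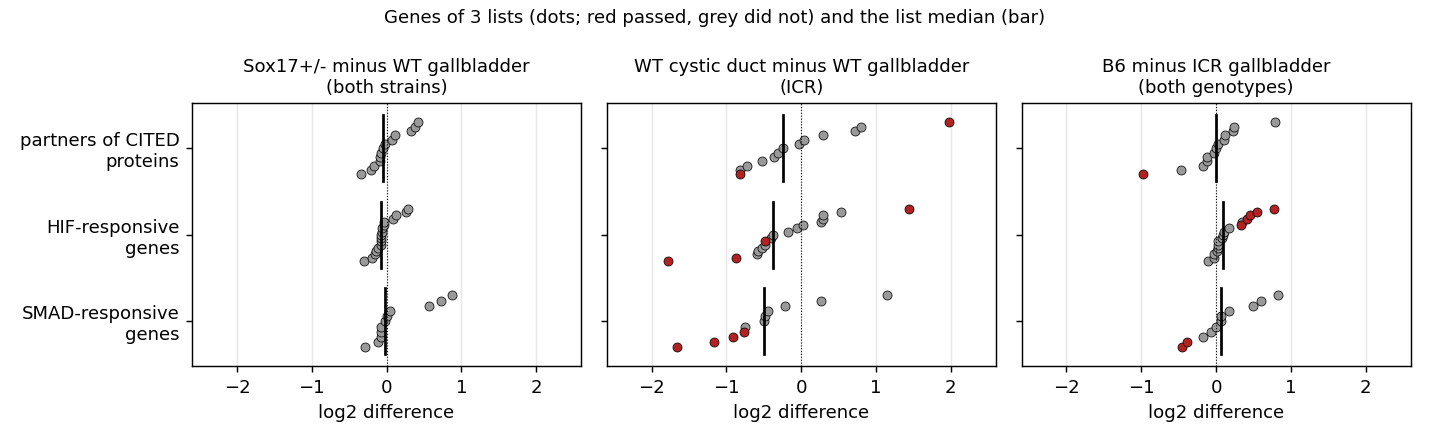
Log2 differences (horizontal axes) of the measured genes of 3 lists (vertical axis) in the 3 comparisons named above each panel, with red dots for limma adjusted p under 0.05, grey dots for the rest and a bar at each list's median. No dot is red in the genotype panel, while P4ha2 at -1.78 and Ppara at 1.98 are the outermost red dots of the cystic duct panel.

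Of nephron progenitors, the cells in which Cited1 is best known, the defining marker Six2 was dim at a mean of 4.40, although cystic duct replicate 2 held 5.17 and ICR Sox17+/- gallbladder replicate 1 held 4.61, both above the filter's 4.47. In all, 4 of the 6 such markers on the array were dim, and the mean log2 signal of the 6 was 5.21 to 5.82 over Sox17+/- gallbladders, 5.09 to 5.65 in cystic duct and 5.32 to 5.70 over WT gallbladders. Of 6 genes each, leukocyte markers had 0 and endothelial markers 0 that passed for genotype, where 0.531% of all genes did. Mesothelial markers (5), erythroid markers (7) and smooth muscle markers (9) likewise had 0 that passed for genotype, with medians of 0.22, 0.44 and -0.12 log2 units. Of 9 hepatocyte markers 1 passed, Serpina1b at 1.15. All 9 lay above 0 for genotype, with a median of 0.80, and 6 had an unadjusted p under 0.05. Of the 9 smooth muscle markers, 4 had an unadjusted p under 0.05, where 10.7% of all genes did. These were Acta2 (-0.25), Myh11 (-0.62, limma adjusted p = 0.0675), Cnn1 (-0.48) and Synpo2 (-0.86), and 3 of the 9 lay above 0. Smooth muscle markers averaged 9.49 to 9.57 in B6 Sox17+/- gallbladder, against 9.74 to 9.93 in B6 WT gallbladder. In ICR they averaged 9.39 to 9.55 in Sox17+/- gallbladder, against 9.42 to 9.59 in WT gallbladder. Pancreatic markers were dim for 3 of 5 and intestinal ones for 3 of 6.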

How the data were processed

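RNA of 10 samples was hybridised to Affymetrix arrays. The authors deposited a log2 signal for each probe set; their background correction and normalization are not stated in the sources used here. Groups came from titles and labels, whose stage and genotype tags are swapped. No other sample column was present (0). Of 45101 probe sets, 64 were controls, 34945 map to 1 gene, 932 to several and 9160 to none, and 34741 single-gene sets matched RefSeq (GRCm38.p6) by Entrez identifier. Samples were quantile normalized, since their medians differed by over 0.2 log2. Each gene was read by its brightest probe set (names in _x_at only where no other was present), and genes under the 30th percentile of mean signal were left out. Limma 3.58.1 (R 4.3.3) fitted 1 mean per group with a variance trend, over the 8 gallbladder samples for genotype and strain (4 residual degrees of freedom) and all 10 for cystic duct (5), with Benjamini-Hochberg adjustment over 14696 genes and a threshold of 0.05. P values measure the spread between these samples. For cystic duct that spread was pooled over 5 groups, although the cystic duct pair differed more than the others. Its median absolute difference between replicates was 0.54 log2 units, against 0.10 to 0.19 in the gallbladder groups. Steps were tested on simulated data. Members and lists were chosen with earlier results of these data known. Named genes were the members, Sox17, partners that passed, up to 4 per list by p for genotype, and the genes most like each member; others were chosen after their values were seen. Figures used Python 3.11.15, pandas 2.3.3 and matplotlib 3.10.9. Alternatives were other scalings, filters, probe set choices and fits, a replicate block and leaving out each sample.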

Additional observations from a re-analysis of the deposited data

How the results depend on the processing

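With 2 samples per group, 1 sample can move counts of calls a long way. The 78 genes that passed for genotype became 33 with every probe set on its own, 30 with the replicate block, 8 with all 10 samples in the fit, and 10 to 767 when 1 sample was left out (767 without ICR WT gallbladder replicate 2, 123 without replicate 1, 10 and 12 without B6 WT replicates 3 and 4). For the difference between strains the count of 0 ran from 0 to 554 on leaving out 1 sample (554 without ICR WT gallbladder replicate 2). The 1311 strain calls became 760 with deposited values, 1998 when a gene's probe sets were averaged, 4022 with every probe set on its own, 198 with all 10 samples, and 268 to 2364 with 1 sample left out. The 2107 cystic duct calls became 0 with only the compared groups (limma, 2083 at an unadjusted p under 0.05) and 821 to 7539 with 1 sample left out. The split of calls also moved with the scaling: strain calls were 702 higher and 609 lower, against 210 and 550 with deposited values and 1190 and 392 with median centring. Cystic duct calls were 842 higher and 1265 lower, against 287 and 1603 and 391 and 1082, and genotype calls 31 and 47, against 23 and 60 with deposited values. The median of all genes moved to -0.27 for cystic duct with deposited values and -0.16 with median centring.

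Cited1's genotype difference ran from -3.25 to -2.93 with 1 sample left out, and its difference between strains from 0.03 to 0.69. Its strain difference turned positive with median centring (0.10) and ran from -0.18 to 0.15 with 1 sample left out, never past the threshold. For cystic duct Cited1 missed the threshold with only the compared groups (-2.33, limma adjusted p = 0.13). It passed with the other scalings, filters, probe set choices and the replicate block (limma adjusted p 0.00153 to 0.00509). With 1 sample left out the difference ran from -2.40 to -2.27. None of these fits is independent of the choice of Cited1, which used the ICR WT gallbladder samples. Cited2 for genotype ran from 0.35 to 0.50 with 1 sample left out. For cystic duct it missed the threshold with deposited values (0.16), median centring (0.26), the mean of its probe sets (0.15), no filter (0.51, adjusted p = 0.0603), every probe set on its own (0.51, adjusted p = 0.0648), the replicate block (0.51, adjusted p = 0.0655) and only the compared groups (0.51, adjusted p = 0.366), and turned to -0.20 on 1421267_a_at. It ran from 0.46 to 0.56 with 1 sample left out. Cited4 for cystic duct missed it with deposited values (2.31), median centring (2.41) and only the compared groups (2.59, adjusted p = 0.262), was 1.29 when its probe sets were averaged and ran from 1.58 to 3.60 with 1 sample left out. Its difference between strains ran from -0.70 to 0.17. The cause of these shifts was not tested. With 1 sample left out, the lone remaining one was assumed to vary like the other groups. Cited4 for genotype ran from 0.22 to 0.65 and for strain from 0.28 to 0.72. Other probe sets of named genes gave, for genotype, 0.00 and 0.08 (Aldoa), -0.90 (Hif1a), 0.09 (Smad7) and 0.14 (Ski), for strain -0.79 and 0.05 (Ppara), and for cystic duct -0.85, -1.05 and -1.12 (Tgfbi). Samples of 1 number are not stated to be paired (r of their deviations 0.07 to 0.38), and the strain comparison cannot be estimated with the replicate block.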
